A study of Homo sapiens with 12 samples.

Results

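The genes that encode the machinery preparing peptides for HLA class I molecules were followed in a human melanoma line and in daughter lines of it that had become resistant to BRAF and MEK inhibitors. They were taken from the table by symbol: TAP1, TAP2, TAPBP, ERAP1, ERAP2, PSMB8, PSMB9, PSMB10, PSME1 and PSME2, 10 of the 23497 genes in the deposited table. All 10 were found in the table, each on 1 row, and all 10 had enough counts to be tested.

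The cells were WM1366, an NRAS-mutant melanoma line, sequenced in bulk as polyadenylated RNA. The sensitive line was grown in DMSO, the solvent of the drugs. Encorafenib with binimetinib was kept on the EB-resistant line, vemurafenib with cobimetinib on VC-resistant cells, and dabrafenib with trametinib on DT-resistant cells. The first drug of each pair inhibits BRAF and the second inhibits MEK. Each of the 4 groups held 3 libraries from independent experiments, numbered 2, 5 and 6 in the labels, and cells were lysed 72 h after seeding in drug or DMSO. Resistance, drug in the medium and time in culture all separate a resistant line from the parent, and each drug pair is represented by a single line, so the effects of drug, resistance and line cannot be told apart. Standard errors and p values measure the spread between experiments on these lines.

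Cytosolic proteins are cut into peptides by the proteasome. When cells sense interferon, the standard catalytic subunits encoded by PSMB5, PSMB6 and PSMB7 can be replaced by PSMB8, PSMB9 and PSMB10, giving the immunoproteasome, and the PA28 activator made of PSME1 and PSME2 can cap the particle. The TAP1 and TAP2 proteins together form the transporter that carries peptides into the endoplasmic reticulum, where ERAP1 and ERAP2 trim their amino ends and tapasin, the product of TAPBP, helps load them onto class I molecules. Loss of these components is a known way in which melanoma cells lower the peptides shown to T cells.

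Of the 10 genes, 6 carry the core of an interferon-stimulated response element close upstream of a RefSeq start site. GAAA, any 2 bases and GAAA again, on either strand, were found within the 250 bases before a start of TAP1, TAP2, TAPBP, ERAP2, PSMB10 and PSME2, against 3.71% of the 27305 genes (3.02% of the 35116 windows) in the RefSeq promoter table for GRCh38.p14. They are shown here because TAP1 and TAPBP hold the core 2 times in overlapping copies, and because genes with and without it are compared further on. All 10 genes matched the table. Each stretch below has 30 bases, is written 5′ to 3′ on the strand of the gene, and has the match in capitals.

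TAP1, chr6:32853816-32853845, minus strand: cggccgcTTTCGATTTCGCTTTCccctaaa
TAP2, chr6:32838778-32838807, minus strand: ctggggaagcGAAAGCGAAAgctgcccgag
TAPBP, chr6:33314079-33314108, minus strand: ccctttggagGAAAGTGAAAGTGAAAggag
ERAP2, chr5:96876460-96876489, plus strand: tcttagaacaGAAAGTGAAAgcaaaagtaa
PSMB10, chr16:67936852-67936881, minus strand: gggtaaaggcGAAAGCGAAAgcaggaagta
PSME2, chr14:24146619-24146648, minus strand: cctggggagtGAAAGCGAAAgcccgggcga

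The TAP1 matches lie on the opposite strand of the gene, 134 to 119 bases before its start, and those of TAPBP 20 to 5 bases before its start. The match of ERAP2 precedes the second of its 2 start sites in the table. The stretches of TAPBP, ERAP2 and PSME2 lie wholly inside the gene span listed in the deposited table, that of PSMB10 for 13 of its 30 bases and that of TAP1 for 1, and that of TAP2 lies outside it. TAP1, TAPBP and ERAP1 hold a match to the NF-kappaB consensus, searched on both strands, as do 11.8% of genes. These matches are shown in the same way. TAP1, TAPBP and ERAP1 are also the 3 genes with the largest differences between the DT-resistant and sensitive lines. Whether the letters bear on those differences was not tested.

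TAP1, chr6:32853757-32853786, minus strand: gcctgttcctGGGACTTTCCgagagccccg
TAPBP, chr6:33314115-33314144, minus strand: taaccagagcGGGGATTTCCaccgcccctc
ERAP1, chr5:96807999-96808028, minus strand: gccttagccaGGGGCTTCCCcgcctgccgc

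TAP1 and PSMB9 are transcribed away from each other from RefSeq starts 488 bases apart, so the TAP1 matches to the interferon element lie 354 to 369 bases before the PSMB9 start, outside its 250-base window. A match describes letters only, and no binding was measured.

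Of the genes, 5 lie in the HLA region of chromosome 6 or just beside it, in the hg38 coordinates of the deposited table: TAP2 at 32821833 to 32838770, PSMB8 at 32840717 to 32844679, PSMB9 at 32844136 to 32859851, TAP1 at 32845209 to 32853816 and TAPBP at 33299694 to 33314387. ERAP1 at 96760810 to 96808100 and ERAP2 at 96875986 to 96919703 are neighbours on chromosome 5, PSME1 at 24136163 to 24138967 and PSME2 at 24143362 to 24147570 on chromosome 14, and PSMB10 lies on chromosome 16 at 67934506 to 67936864. The listed span of PSMB9 covers all 8608 bases of TAP1 on the opposite strand and overlaps PSMB8 by 544 bases. ERAP1 overlaps 18786 bases of CAST on the opposite strand, and PSMB10 shares 1512 bases with a gene model on its own strand. In a library, counts of CAST reached up to 459% of those of ERAP1. Counts of TAP1 and PSMB8 reached up to 362% and 258% of those of PSMB9. PSMB9 shares 2365 bases with PSMB8-AS1 on its own strand, whose counts reached at most 13.1% of those of PSMB9 in a library. The strand setting of the counting is not given in the sources used here, so reads in these overlaps cannot be assigned with certainty, and the levels of PSMB9, PSMB8, TAP1, ERAP1 and PSMB10 carry that uncertainty.

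Library totals ran from 40491309 to 54495132 counts, and the 10 genes together took 0.0793 to 0.0862% of the counts of a sensitive library, 0.0966 to 0.103% of an EB-resistant one, 0.111 to 0.113% of a VC-resistant one and 0.141 to 0.176% of a DT-resistant one. PSMB10, with the fewest counts of them, had at least 321 in every library. Among melanocyte markers, 4 of 8 had an entry in the table, MITF alone exceeded 1 CPM, and their summed level was 41.4 to 73.2 CPM; PMEL, DCT and TYRP1 were near 0. Of 14 leukocyte markers, 6 had an entry and together they stayed at or below 1.62 CPM. Fibroblast markers (8 of 8 in the table, THY1 the highest) summed to 110 to 149 CPM for sensitive, 528 to 591 for EB-resistant, 281 to 314 for VC-resistant and 362 to 468 CPM for DT-resistant libraries, so their sum was higher in every resistant line together with several of the genes described here. Of the 6 fibroblast markers tested, 6 rose in EB-resistant, 4 rose and 1 fell in VC-resistant and 5 rose in DT-resistant cells, with median log2FC of 4.95, 1.42 and 2.57. From sensitive to EB-resistant cells PDGFRB went from 0.784 to 74.5 CPM and COL1A1 from 0.325 to 17.9 CPM, and LUM went from 0.916 CPM in sensitive cells to 49.8, 14.7 and 145 CPM in the EB-, VC- and DT-resistant lines. COL1A2 and DCN, the 2 markers with too few counts to test, stayed under 1 CPM on average in every group. The part of these markers in the results was not tested. In bulk libraries, fewer cells expressing a gene and less RNA per cell cannot be told apart.

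Levels are CPM, that is, counts brought to the same library size by TMM scaling, and appear as mean ± SD over the 3 libraries of a group. A gene rose or fell in a comparison when its adjusted p, over the 17114 genes tested, was under 0.05 in edgeR's quasi-likelihood test; log2 fold changes (log2FC) carry their standard error. The 3 comparisons with the sensitive line share its 3 libraries and are not independent of each other.

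Compared with the sensitive line, 5 of the 10 genes rose in EB-resistant cells, 6 in VC-resistant cells and 8 in DT-resistant cells, and 0 fell in edgeR or DESeq2 (at an unadjusted p under 0.05 in edgeR, 0 fell in EB-resistant or DT-resistant cells and 1, TAP2, fell in VC-resistant cells). Of all genes tested, 28.5%, 27.6% and 29.8% rose and 27.6%, 27.4% and 29.3% fell in the same comparisons. The median log2FC of the 10 genes was 0.225 for EB-resistant, 0.45 for VC-resistant and 0.802 for DT-resistant cells, beside medians within 0.01 of 0 over all genes tested. TAP1, TAPBP, ERAP1 and PSMB9 rose in each of the 3 lines, PSMB8 in EB-resistant and DT-resistant cells, ERAP2 and PSME1 in VC-resistant and DT-resistant cells, and PSMB10 in DT-resistant cells; TAP2 and PSME2 passed the test in no comparison with the sensitive line.

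**Figure D1:**
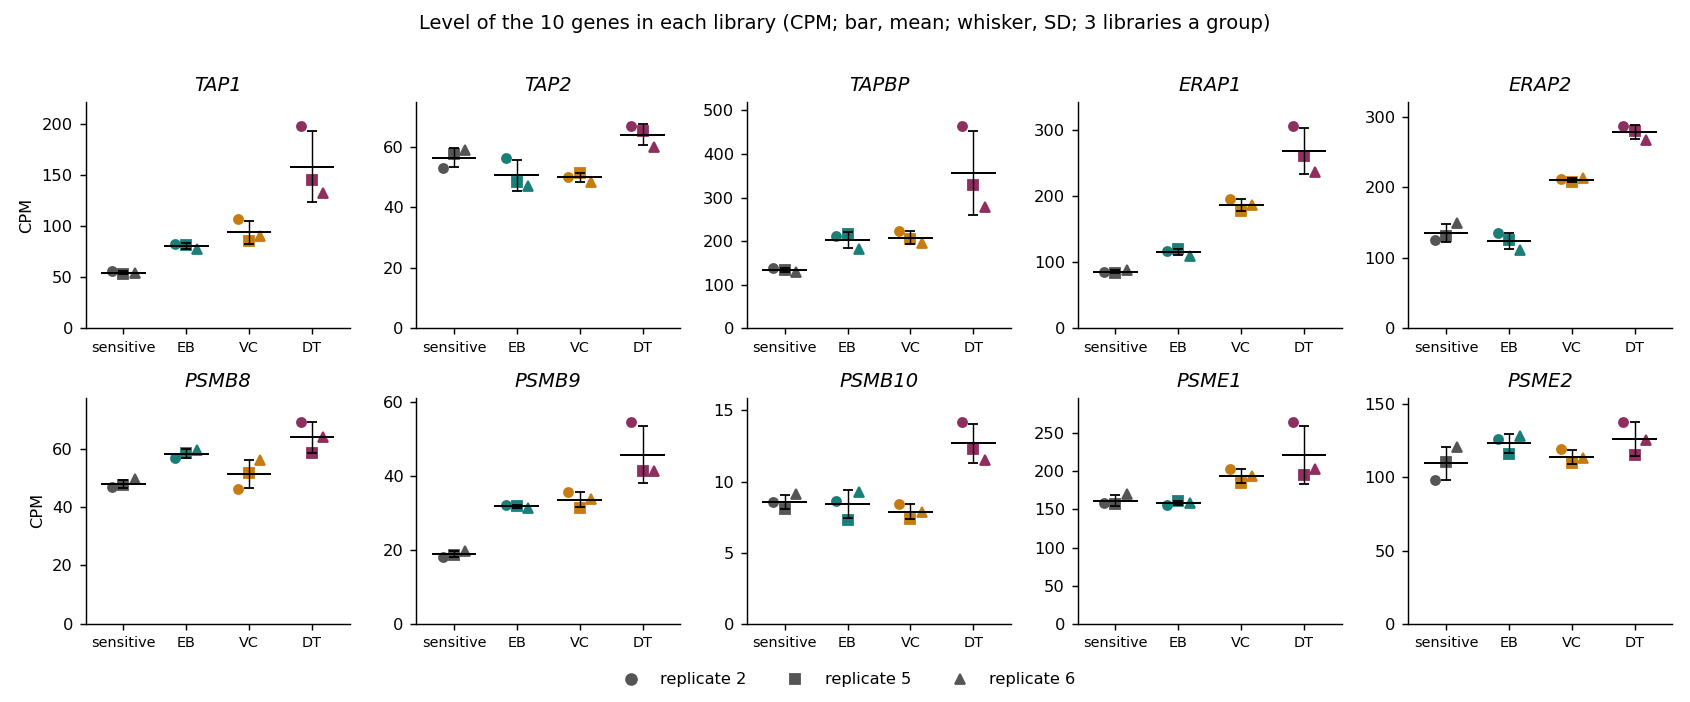
Level of each of the 10 genes in CPM (vertical axis, from 0) in the 3 libraries of the sensitive, EB-resistant, VC-resistant and DT-resistant groups (horizontal axis); symbols mark replicates 2, 5 and 6, the bar is the mean and the whisker the SD. DT-resistant replicate 2 is the highest library of its group for all 10 genes, and the sensitive libraries of TAP1 sit between 53.2 and 55.7 CPM, below every resistant library.

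The transporter partners differed. TAP1 stood at 55.7, 53.2 and 53.6 CPM in sensitive replicates 2, 5 and 6, at 82.4, 81.3 and 77.1 CPM in EB-resistant, at 106.4, 84.8 and 89.8 CPM in VC-resistant and at 197.6, 144.7 and 132.2 CPM in DT-resistant replicates. Each resistant group lay wholly above the sensitive one, with the DT-resistant libraries highest. TAP1 rose by a log2FC of 0.57 ± 0.12 in EB-resistant (adjusted p = 0.00126), 0.79 ± 0.12 in VC-resistant (adjusted p = 9.8e-05) and 1.55 ± 0.13 in DT-resistant cells (adjusted p = 1.66e-07), a 2.92-fold difference in the last. TAP2, its obligate partner, stood at 52.8, 57.6 and 58.7 CPM in sensitive, 56.4, 48.2 and 46.8 CPM in EB-resistant, 49.8, 51.2 and 48.4 CPM in VC-resistant and 66.7, 65.3 and 59.9 CPM in DT-resistant replicates. Its VC-resistant libraries all lay below the sensitive ones and its DT-resistant libraries all above them, yet neither difference passed the test over all genes. The log2FC of TAP2 was -0.16 in EB-resistant (95% interval -0.33 to 0.016, adjusted p = 0.113), -0.18 in VC-resistant (-0.35 to -0.0029, adjusted p = 0.0792) and 0.18 in DT-resistant cells (0.0076 to 0.36, adjusted p = 0.0679). These TAP2 values depended on single libraries: it was called lower in EB-resistant cells without EB-resistant replicate 2 (log2FC -0.23, adjusted p = 0.029) and in VC-resistant cells without sensitive replicate 2 (-0.23, adjusted p = 0.0452), and higher in DT-resistant cells without DT-resistant replicate 6 (0.23, adjusted p = 0.0413) or without EB-resistant replicate 2 (0.19, adjusted p = 0.0394).

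TAPBP, which encodes tapasin, rose in all 3 lines. It stood at 137.0, 133.7 and 128.0 CPM in sensitive, 211.6, 215.7 and 181.1 CPM in EB-resistant, 223.6, 204.8 and 195.5 CPM in VC-resistant and 463.6, 328.6 and 278.0 CPM in DT-resistant replicates 2, 5 and 6. No resistant library reached down to the sensitive range. The log2FC was 0.61 ± 0.14 in EB-resistant (adjusted p = 0.00294), 0.65 ± 0.14 in VC-resistant (adjusted p = 0.00215) and 1.42 ± 0.15 in DT-resistant cells (adjusted p = 3.51e-06). Its DT-resistant libraries had the widest spread of the 10 genes, with a coefficient of variation of 26.9%.

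The endoplasmic reticulum aminopeptidases both rose in VC-resistant and DT-resistant cells, and ERAP1 alone was called in EB-resistant cells. ERAP1, which trims longer precursors, stood at 85.4, 82.9 and 88.2 CPM in sensitive, 117.2, 119.4 and 109.7 CPM in EB-resistant, 195.2, 177.9 and 186.4 CPM in VC-resistant and 306.0, 261.3 and 237.3 CPM in DT-resistant replicates. The 4 groups did not overlap, and the order was sensitive, EB-resistant, VC-resistant, DT-resistant. Its log2FC was 0.43 ± 0.083 in EB-resistant (adjusted p = 0.000378), 1.13 ± 0.084 in VC-resistant (adjusted p = 5.77e-08) and 1.65 ± 0.085 in DT-resistant cells (adjusted p = 9.29e-10), the last being 3.14-fold and the largest of the 10 genes in that comparison. ERAP2, its homologue with a different preference for amino-terminal residues, stood at 125.5, 131.2 and 149.8 CPM in sensitive, 135.5, 124.7 and 111.6 CPM in EB-resistant, 211.6, 207.1 and 213.7 CPM in VC-resistant and 287.0, 280.7 and 267.6 CPM in DT-resistant replicates. EB-resistant and sensitive libraries of ERAP2 overlapped (log2FC -0.13, 95% interval -0.30 to 0.042, adjusted p = 0.188), whereas VC-resistant (0.64 ± 0.080, adjusted p = 9.9e-06) and DT-resistant libraries (1.04 ± 0.081, adjusted p = 6.12e-08) lay wholly above both.

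The immunoproteasome subunits did not move as a block. PSMB9, the counterpart of PSMB6, stood at 18.1, 18.5 and 19.8 CPM in sensitive, 32.2, 31.8 and 31.4 CPM in EB-resistant, 35.7, 31.4 and 33.7 CPM in VC-resistant and 54.6, 41.4 and 41.3 CPM in DT-resistant replicates. Every resistant library exceeded every sensitive one. PSMB9 rose by a log2FC of 0.76 ± 0.10 in EB-resistant (adjusted p = 1.68e-05), 0.84 ± 0.10 in VC-resistant (adjusted p = 9.1e-06) and 1.28 ± 0.11 in DT-resistant cells (adjusted p = 9.78e-08). PSMB8, the counterpart of PSMB5, stood at 46.9, 47.6 and 49.5 CPM in sensitive, 56.8, 58.4 and 59.6 CPM in EB-resistant, 46.3, 51.5 and 56.0 CPM in VC-resistant and 69.1, 58.6 and 64.1 CPM in DT-resistant replicates. It rose by 0.28 ± 0.082 in EB-resistant (adjusted p = 0.00884) and 0.41 ± 0.082 in DT-resistant cells (adjusted p = 0.000514), while VC-resistant and sensitive libraries overlapped (log2FC 0.096, 95% interval -0.080 to 0.27, adjusted p = 0.341).

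PSMB10, the counterpart of PSMB7, had the lowest level per length (RPKM) of the 10 genes in every group. Its levels were 8.6, 8.1 and 9.1 CPM in sensitive, 8.7, 7.3 and 9.2 CPM in EB-resistant, 8.4, 7.4 and 7.9 CPM in VC-resistant and 14.2, 12.3 and 11.5 CPM in DT-resistant replicates. DT-resistant libraries were separate from the other 9, which overlapped. PSMB10 rose in DT-resistant cells (log2FC 0.56 ± 0.12, adjusted p = 0.00111), with no call in EB-resistant (-0.029, 95% interval -0.29 to 0.24) or VC-resistant cells (-0.12, 95% interval -0.39 to 0.15).

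Of the PA28 activator subunits, PSME1 was called in 2 lines and PSME2 in none. PSME1, the alpha subunit, stood at 158.4, 156.6 and 169.8 CPM in sensitive, 155.3, 160.5 and 158.0 CPM in EB-resistant, 203.1, 184.6 and 194.1 CPM in VC-resistant and 265.0, 195.2 and 203.5 CPM in DT-resistant replicates. The VC-resistant and DT-resistant libraries lay above the sensitive ones, and the EB-resistant libraries overlapped with them (log2FC -0.033, 95% interval -0.23 to 0.17). PSME1 rose by 0.45 ± 0.094 in DT-resistant cells (adjusted p = 0.000739). It rose by 0.26 ± 0.094 in VC-resistant cells (adjusted p = 0.0274), but was not called when sensitive replicate 2 (adjusted p = 0.068) or 5 (adjusted p = 0.0794) was left out, nor without VC-resistant replicate 2 (adjusted p = 0.0748) or VC-resistant replicate 6 (adjusted p = 0.0541), with log2FC from 0.24 to 0.31 over all leave-outs. PSME2, the beta subunit, stood at 98.3, 110.3 and 120.7 CPM in sensitive, 126.0, 116.2 and 128.2 CPM in EB-resistant, 119.4, 109.9 and 113.3 CPM in VC-resistant and 138.0, 115.2 and 125.5 CPM in DT-resistant replicates. Its groups overlapped throughout, and the log2FC was 0.17 in EB-resistant (95% interval -0.011 to 0.35), 0.057 in VC-resistant (-0.12 to 0.24) and 0.20 in DT-resistant cells (0.021 to 0.38, adjusted p = 0.0521). The DT-resistant difference of PSME2 was called without sensitive replicate 6 (log2FC 0.28, adjusted p = 0.0154), VC-resistant replicate 2 (0.21, adjusted p = 0.0437) or DT-resistant replicate 5 (0.27, adjusted p = 0.0236), and the EB-resistant one without sensitive replicate 6 (0.25, adjusted p = 0.0265).

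**Figure D2:**
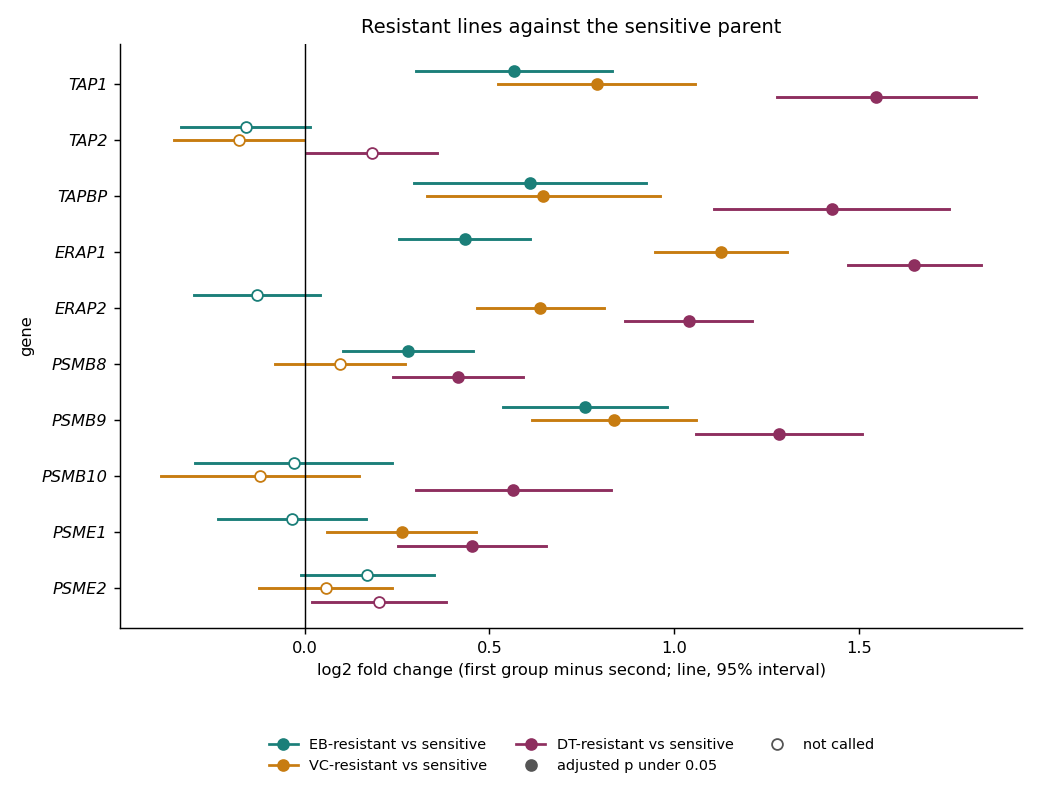
Log2 fold change of each of the 10 genes in EB-resistant, VC-resistant and DT-resistant against sensitive cells (horizontal axis), with 95% intervals as lines; filled points passed the adjusted p threshold and open points did not. TAP1, TAPBP, ERAP1 and PSMB9 are filled for all 3 lines, TAP2 and PSME2 are open for all 3, and the DT-resistant points are the farthest right for every gene.

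DT-resistant replicate 2 was the highest library of its group for 10 of the 10 genes, sensitive replicate 6 for 8 and VC-resistant replicate 2 for 7; in the EB-resistant group no replicate was highest for more than 4. The median coefficient of variation of the 10 genes was 4.54% over the sensitive, 4.79% over the EB-resistant, 5.54% over the VC-resistant and 11.9% over the DT-resistant libraries, against 6.98%, 5.68%, 7.26% and 8.48% over the genes tested with at least 5 CPM on average (10609, 10608, 10611 and 10610 genes). Without DT-resistant replicate 2, the log2FC against sensitive was 1.36 for TAP1, 1.20 for TAPBP, 1.55 for ERAP1, 1.02 for ERAP2, 0.36 for PSMB8, 1.14 for PSMB9, 0.48 for PSMB10 and 0.31 for PSME1, and all 8 remained called. Replicates 5 and 6 of the DT-resistant line thus lay above the sensitive libraries for these genes too.

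Among the resistant lines, the DT-resistant line had the highest levels. In EB-resistant against DT-resistant cells 8 of the 10 genes were lower and 0 were higher in edgeR or DESeq2, beside 28.8% of all genes lower and 28.4% higher. In VC-resistant against DT-resistant cells 8 of the 10 were again lower and 0 higher, beside 8.71% of all genes lower and 7.08% higher, the comparison with the fewest differences over all genes. In EB-resistant against VC-resistant cells 3 were lower and 0 higher, beside 28.8% of all genes lower and 29.6% higher (0 higher also in DESeq2; at an unadjusted p under 0.05 in edgeR, PSMB8 was higher). Their median log2FC was -0.559, -0.424 and -0.057 in these comparisons in turn, and all-gene medians lay within 0.01 of 0. These comparisons share libraries with each other and with those against the sensitive line.

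ERAP2 and ERAP1 separated EB-resistant from VC-resistant cells most clearly. EB-resistant cells were lower in ERAP1 (log2FC -0.69 ± 0.083, adjusted p = 4.61e-06) and in ERAP2 (-0.77 ± 0.081, adjusted p = 1.24e-06), a 1.61-fold and a 1.70-fold lower level. PSME1 was the remaining call (-0.30 ± 0.094, adjusted p = 0.0138). TAPBP (-0.036, 95% interval -0.35 to 0.28) and PSMB9 (-0.078, 95% interval -0.30 to 0.14) overlapped between these lines. TAP1 (-0.22, 95% interval -0.49 to 0.041, adjusted p = 0.135) and PSMB8 (0.18, 95% interval 0.0093 to 0.36, adjusted p = 0.0662) did not pass the threshold although their libraries did not overlap; without DT-resistant replicate 2 in the shared estimate of spread TAP1 was called lower (-0.23, adjusted p = 0.021), and without VC-resistant replicate 6 PSMB8 was called higher (0.24, adjusted p = 0.0337).

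TAP1, TAPBP and ERAP1 were lower in VC-resistant than in DT-resistant cells with a log2FC of -0.76 ± 0.12 (adjusted p = 0.000742), -0.78 ± 0.14 (adjusted p = 0.00276) and -0.52 ± 0.083 (adjusted p = 0.000465). TAP2 (-0.36 ± 0.082, adjusted p = 0.00709), ERAP2 (-0.40 ± 0.080, adjusted p = 0.00291), PSMB9 (-0.45 ± 0.10, adjusted p = 0.00749) and PSMB10 (-0.69 ± 0.12, adjusted p = 0.00144) were lower too. TAP2 thus differed between these resistant lines while neither line passed the test against the parent. PSMB8 was lower too (log2FC -0.32 ± 0.082, adjusted p = 0.0152), a call lost without VC-resistant replicate 2 (adjusted p = 0.0602) or DT-resistant replicate 2 (adjusted p = 0.0566). Without DT-resistant replicate 2 the log2FC shrank to -0.56 for TAP1 (adjusted p = 0.000418) and -0.54 for TAPBP (adjusted p = 0.00069). That of ERAP1 shrank to -0.42 (adjusted p = 0.000956) and that of PSMB9 to -0.30 (adjusted p = 0.0315), and these remained called. Replicate numbers paired the libraries of these 2 lines, and with the replicate as a block the same number of genes, 8, was lower. PSME1 (-0.19, 95% interval -0.39 to 0.010) and PSME2 (-0.14, 95% interval -0.33 to 0.036) were not called between them, and without DT-resistant replicate 2 their log2FC were -0.038 and -0.074.

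EB-resistant cells lay furthest below DT-resistant cells in the aminopeptidases, with a log2FC of -1.22 ± 0.084 for ERAP1 (adjusted p = 1.99e-08) and -1.17 ± 0.081 for ERAP2 (adjusted p = 2.18e-08). TAP1 (-0.98 ± 0.12, adjusted p = 1.18e-05), TAPBP (-0.81 ± 0.14, adjusted p = 0.000361), PSMB10 (-0.59 ± 0.12, adjusted p = 0.000783), PSMB9 (-0.52 ± 0.10, adjusted p = 0.00047), PSME1 (-0.49 ± 0.094, adjusted p = 0.000431) and TAP2 (-0.34 ± 0.082, adjusted p = 0.00234) were lower as well. Without DT-resistant replicate 2 the log2FC was -0.79 for TAP1, -0.59 for TAPBP, -0.38 for PSMB9 and -0.34 for PSME1, and these remained called. PSMB8 (-0.13, 95% interval -0.31 to 0.042) and PSME2 (-0.032, 95% interval -0.21 to 0.15) overlapped between the lines.

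**Figure D3:**
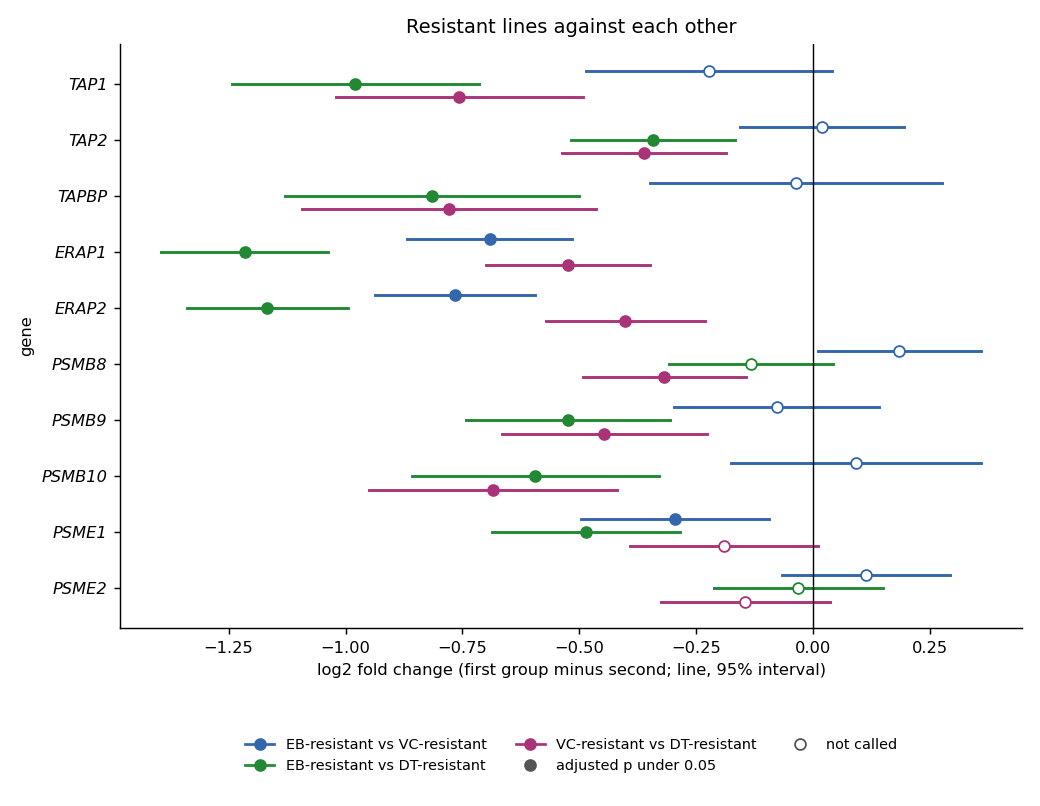
Log2 fold change of each of the 10 genes between resistant lines (horizontal axis, first line minus second) with 95% intervals as lines; filled points passed the adjusted p threshold. Points left of 0 are lower in the first line: against DT-resistant cells all 10 genes lie left of 0, while between EB-resistant and VC-resistant cells ERAP1, ERAP2 and PSME1 are the filled points.

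Within complexes, the balance of partners was read from ratios of RPKM, CPM divided by the gene length in kilobases that the deposited table gives. The level of PSMB9 relative to PSMB6 was 0.0816, 0.0782 and 0.0835 for the sensitive, 0.142, 0.142 and 0.134 for the EB-resistant, 0.182, 0.180 and 0.198 for the VC-resistant and 0.308, 0.229 and 0.208 for the DT-resistant replicates. The 4 groups did not overlap. On the log2 scale the ratio of PSMB9 to PSMB6 was higher than in sensitive cells by 0.78 for EB-resistant, 1.20 for VC-resistant and 1.59 for DT-resistant cells. PSMB6 itself fell in VC-resistant (log2FC -0.36 ± 0.072, adjusted p = 0.000538) and DT-resistant cells (-0.32 ± 0.072, adjusted p = 0.00125), and PSMB9 rose. Each p was 0.1 in a two-sided exact permutation test, the smallest that 3 libraries against 3 allow, and 0.15 after adjustment over 18 ratio tests, so this design could not reach 0.05.

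PSMB8 relative to PSMB5 was 0.153 ± 0.00744 for sensitive, 0.173 ± 0.00541 for EB-resistant, 0.178 ± 0.0303 for VC-resistant and 0.209 ± 0.00607 for DT-resistant libraries. Only the VC-resistant libraries, at 0.147, 0.181 and 0.207, overlapped with the sensitive ones at 0.161, 0.146 and 0.154. PSMB5 passed the test in no comparison with the sensitive line. PSMB10 relative to PSMB7 averaged 0.0451 ± 0.00263 over the sensitive, 0.0455 ± 0.00524 over the EB-resistant, 0.0340 ± 0.000895 over the VC-resistant and 0.0518 ± 0.00832 over the DT-resistant libraries. The VC-resistant ratio lay below all others, with PSMB7 higher there (log2FC 0.29 ± 0.065, adjusted p = 0.00162) and PSMB10 not called. PSMB7 was higher in DT-resistant cells too (0.37 ± 0.065, adjusted p = 0.000164), where the ratio of PSMB10 to PSMB7 overlapped with the sensitive one. In every library the standard subunit was the more abundant of each pair per length.

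The ratio of TAP1 to TAP2 was 1.45, 1.27 and 1.25 for the sensitive, 2.01, 2.32 and 2.26 for the EB-resistant, 2.94, 2.27 and 2.55 for the VC-resistant and 4.07, 3.05 and 3.03 for the DT-resistant replicates. All resistant libraries exceeded all sensitive ones, and TAP1 exceeded TAP2 per length in each of the 12. ERAP1 relative to ERAP2 averaged 0.555 ± 0.0402 over the sensitive, 0.818 ± 0.0543 over the EB-resistant, 0.774 ± 0.0293 over the VC-resistant and 0.841 ± 0.0818 over the DT-resistant libraries, so the resistant lines shared a higher ratio although ERAP2 was not called in one of them. PSME1 relative to PSME2 was 2.98 ± 0.23, 2.59 ± 0.173, 3.43 ± 0.0352 and 3.52 ± 0.314 in the same order. The EB-resistant PSME1 ratio lay below the others, and the VC-resistant and DT-resistant ratios lay above the sensitive one. No test was run on these 3 ratios.

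**Figure D4:**
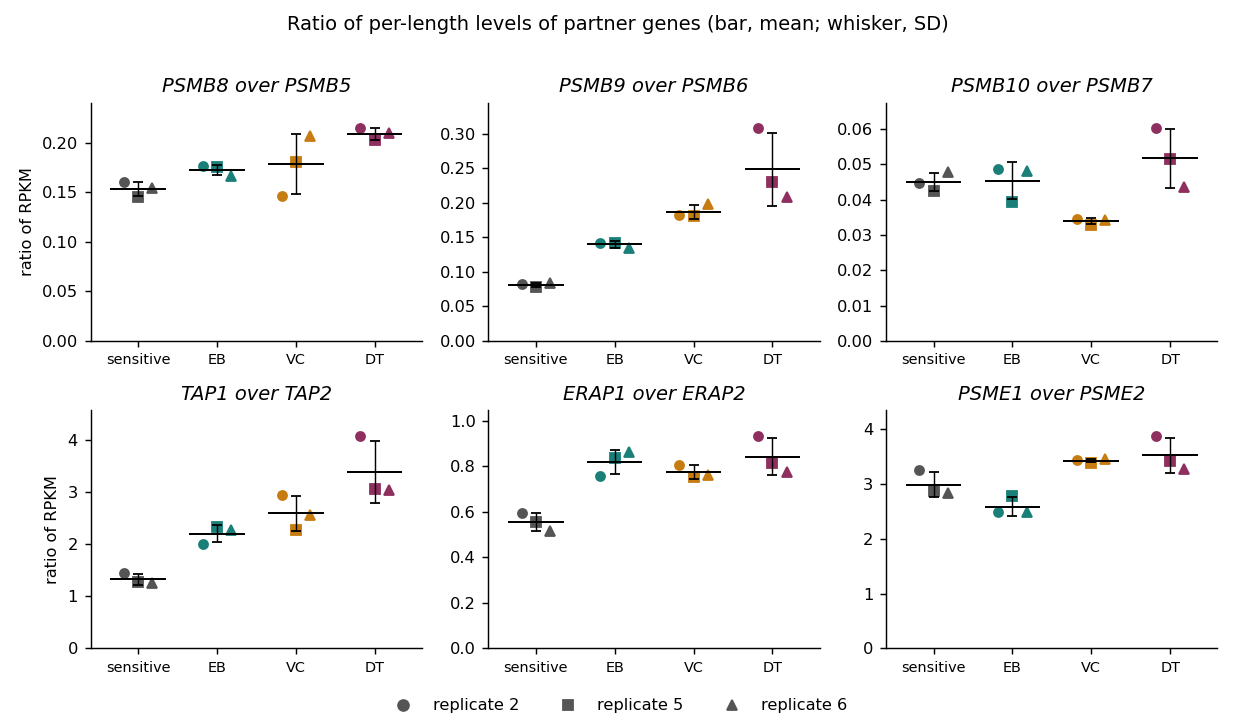
Ratio of per-length levels (RPKM, vertical axis from 0) of partner genes in the 3 libraries of each group (horizontal axis), with the mean as a bar and the SD as a whisker. The ratio of PSMB9 to PSMB6 climbs from 0.0811 in sensitive to 0.248 in DT-resistant libraries, and the ratio of PSMB10 to PSMB7 is lowest in VC-resistant libraries at 0.0340.

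Other proteasome genes, and the lists after them, are set beside all genes tested. Shares of all genes that rose were 28.5%, 27.6% and 29.8% in EB-resistant, VC-resistant and DT-resistant cells. Shares that fell were 27.6%, 27.4% and 29.3%. Of 11 structural subunits of the 20S core, 3 fell in EB-resistant cells (PSMA3, PSMA4 and PSMA5) and 2 rose in each of VC-resistant and DT-resistant cells, with PSMB3 among those that rose in both (log2FC 0.32 and 0.26); the others were not called, and the medians were -0.0117, 0.028 and 0.0477. Of 19 genes of the 19S regulatory particle, which recognises ubiquitinated proteins, 1 rose and 6 fell in EB-resistant, 1 rose and 13 fell in VC-resistant and 2 rose and 12 fell in DT-resistant cells. The 19S medians were -0.109, -0.368 and -0.354, below the all-gene medians near 0. PSMD2, a scaffold of the particle's base, fell from 1105 to 542 CPM in EB-resistant (log2FC -1.03 ± 0.11, adjusted p = 2.49e-06), to 605 CPM in VC-resistant (-0.87 ± 0.11, adjusted p = 1.69e-05) and to 569 CPM in DT-resistant cells (-0.96 ± 0.11, adjusted p = 5.46e-06). PSMD6 fell in all 3 lines too (log2FC -0.52, -0.61 and -0.59).

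Of 8 assembly factors and other regulators, 4, 2 and 3 fell in EB-resistant, VC-resistant and DT-resistant cells and the others were not called, with medians of -0.171, -0.153 and -0.193. PSME4, which encodes the alternative activator PA200, fell in each line (log2FC -0.62 ± 0.061, -1.045 ± 0.061 and -0.87 ± 0.061). PSME3, which forms the nuclear PA28 gamma activator and is a relative of PSME1 and PSME2, fell in each as well (-0.26 ± 0.068, -0.44 ± 0.069 and -0.50 ± 0.069), in the opposite direction to the calls of PSME1.

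Of 8 genes for loading chaperones and folding enzymes of the endoplasmic reticulum, 1 rose and 2 fell in EB-resistant cells (median log2FC -0.0896), whereas 6 rose and 1 fell in VC-resistant (median 0.762) and in DT-resistant cells (median 0.999). HSPA5 led the list in both of these lines. DT-resistant libraries averaged 7020 ± 2030 CPM of it and VC-resistant ones 3757 ± 695 CPM, against 1547 ± 169 CPM for the parent. The EB-resistant mean of HSPA5 was 1410 CPM. CALR averaged 1611 CPM (DT-resistant) and 1318 CPM (VC-resistant), against 762 CPM for the parent, and P4HB 795 and 741 CPM, against 498 CPM. TAPBPL, a tapasin relative that edits bound peptides, rose from 9.29 ± 1.26 CPM to 25.3 ± 6.0 CPM in DT-resistant cells (log2FC 1.45 ± 0.15, adjusted p = 1.22e-06). It rose in VC-resistant cells too, to 15.5 ± 1.59 CPM, and averaged 11.1 ± 0.304 CPM in EB-resistant cells (no call). PDIA3, the disulfide isomerase that pairs with tapasin, fell in EB-resistant (-0.31 ± 0.10, adjusted p = 0.0183) and rose in VC-resistant (0.80 ± 0.10, adjusted p = 1.36e-05) and DT-resistant cells (0.96 ± 0.10, adjusted p = 1.74e-06). CANX, encoding calnexin, rose in all 3 (0.31, 0.84 and 1.04), and BCAP31, which helps class I molecules leave the endoplasmic reticulum, fell in all 3 (-0.18, -0.22 and -0.21).

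Of 7 other peptidases that can trim or destroy peptides, 3 fell in EB-resistant, 2 rose and 3 fell in VC-resistant and 2 rose and 2 fell in DT-resistant cells, with medians of -0.0994, -0.00972 and -0.0179. THOP1, a cytosolic oligopeptidase, fell in each line (log2FC -0.58 ± 0.088, -0.55 ± 0.088 and -0.65 ± 0.089). LAP3, a cytosolic leucine aminopeptidase, fell from 102 ± 11.7 to 63.4 ± 1.52 CPM in EB-resistant cells (-0.69 ± 0.081, adjusted p = 3.7e-06) and to 88.7 ± 4.68 CPM in VC-resistant cells (-0.20 ± 0.081, adjusted p = 0.0452), and was not called in DT-resistant cells. LNPEP, the endosomal relative of ERAP1 and ERAP2 and their neighbour on chromosome 5, rose in DT-resistant cells (0.43 ± 0.090, adjusted p = 0.000774) and was not called in EB-resistant (0.069 ± 0.090) or VC-resistant cells (-0.0097 ± 0.090).

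The class I chains, which receive the peptides, rose beside the machinery: 4 of 6 in the EB-resistant line, 5 in the VC-resistant line and 6 in the DT-resistant line, with medians of 0.735, 0.767 and 1.63; the others were not called. B2M, the invariant light chain, stood at 617 ± 30.7 CPM in sensitive, 650.3 ± 24.8 in EB-resistant (no call), 1076 ± 90.7 in VC-resistant and 1548 ± 459 CPM in DT-resistant cells. Reads that match several near-identical HLA genes make the HLA counts uncertain.

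Interferon receptors and transcription factors were mixed. Of 19 genes listed, 18 were tested. In EB-resistant cells 7 rose and 2 fell, in VC-resistant cells 6 rose and 1 fell, and in DT-resistant cells 10 rose and 1 fell. The medians were 0.205, 0.165 and 0.338. Beside them, 28.5%, 27.6% and 29.8% of all genes rose and 27.6%, 27.4% and 29.3% fell. The gene that fell in DT-resistant cells was SOCS3 (log2FC -1.69 ± 0.29, adjusted p = 0.000343). NLRC5, the class I transactivator, had its highest mean in the EB-resistant line, with 9.60 ± 0.581 CPM for sensitive, 17.95 ± 1.25 for EB-resistant, 11.1 ± 0.837 for VC-resistant (no call) and 15.8 ± 2.91 CPM for DT-resistant cells. IRF1 was called in none of these comparisons (adjusted p = 0.957, 0.122 and 0.498), with an SD of 23 CPM around a mean of 30.5 CPM in EB-resistant cells. The interferon gamma receptor subunits differed: IFNGR1 rose in each line (1.31 ± 0.092, 0.57 ± 0.091 and 1.09 ± 0.092). IFNGR2 fell in EB-resistant cells (39.3 to 19.2 CPM, log2FC -1.03 ± 0.093, adjusted p = 2.2e-07), was not called in VC-resistant cells (95% interval of the log2FC -0.22 to 0.17) and rose in DT-resistant cells (0.69 ± 0.091, adjusted p = 1.26e-05). IRF2 rose in each line (0.82, 0.78 and 0.90).

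**Figure D5:**
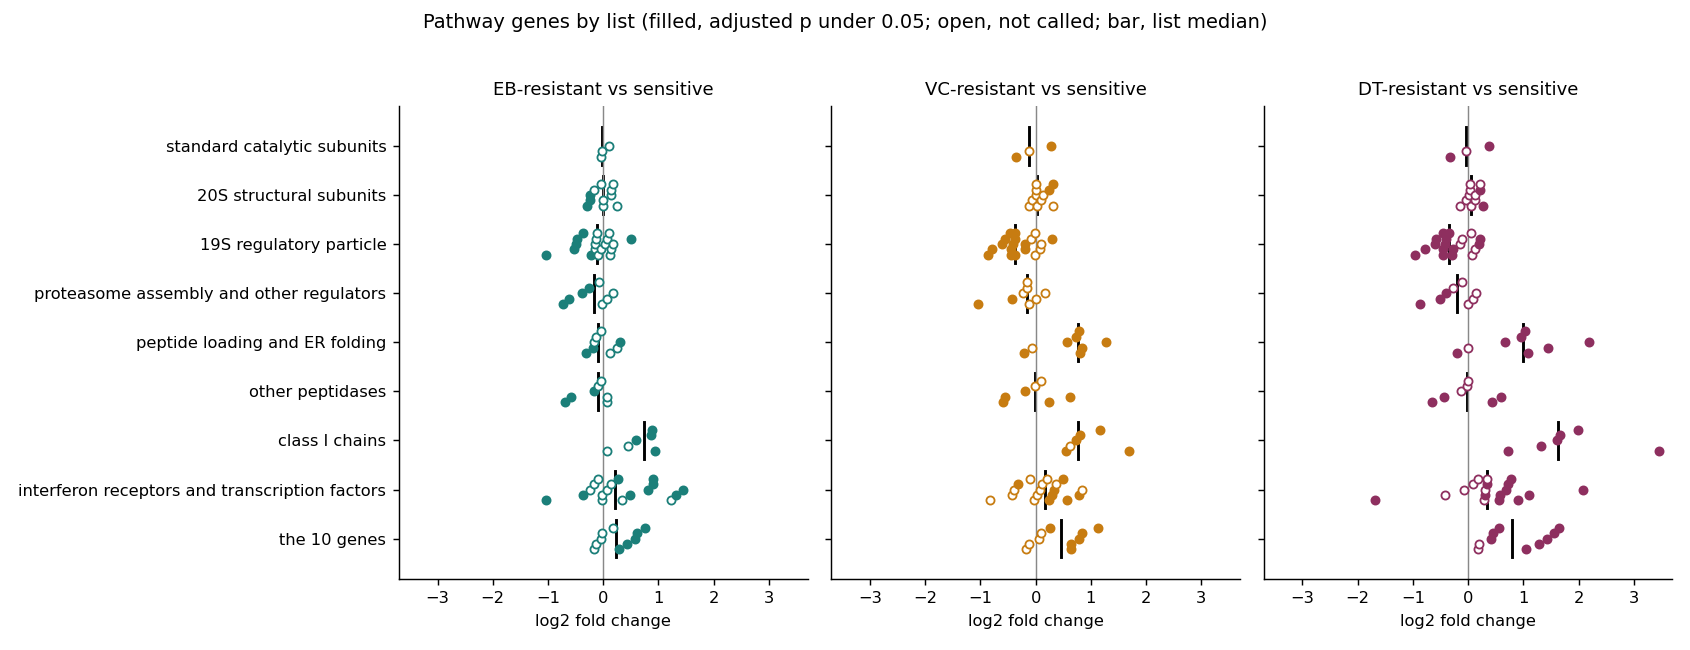
Log2 fold change of each gene (points, horizontal axis) in the lists of pathway genes (rows) for EB-resistant, VC-resistant and DT-resistant against sensitive cells; filled points passed the adjusted p threshold, and the bar is the median of the list. The 19S regulatory particle has medians of -0.368 and -0.354 in VC-resistant and DT-resistant cells, and the bottom row of the 10 genes described here has medians of 0.45 and 0.802.

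Genes with and without the GAAA letters were called. Of the 6 genes with them, TAP1 and TAPBP rose in all 3 lines, ERAP2 in 2, PSMB10 in 1, and TAP2 and PSME2 in none. Of the 4 without these letters in their windows, ERAP1 and PSMB9 rose in all 3 lines and PSMB8 and PSME1 in 2 each. TAP1, TAPBP and ERAP1, which hold the NF-kappaB letters, rose in all 3 lines, as did PSMB9, which does not hold them in its window. The TAP1 match to the NF-kappaB letters lies between the TAP1 and PSMB9 starts, outside the PSMB9 window. Whether either set of letters bears on these calls was not tested.

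Over the 12 libraries, whose log2 CPM mostly separate by group, TAP1 and TAPBP followed each other most closely of the 45 pairs of these genes (Pearson r = 0.985), followed by TAP1 and PSMB9 (r = 0.96) and TAP1 and ERAP1 (r = 0.958). The r of TAP2 was 0.274 with PSMB9, the lowest of all pairs, 0.468 with TAP1 and 0.803 with PSMB10. These correlations are descriptions over libraries of 4 lines that share their group differences. Among 10601 other genes with at least 5 CPM on average, the 2 most like each were KLF9 (r = 0.9885) and SARM1 (0.9854) for TAP1, HLA-H (0.9866), a class I pseudogene, and SARM1 (0.9797) for TAPBP, TRIM37 (0.9911) and TGFBR1 (0.9905) for ERAP1, and UBE2QL1 (0.9792) and FEM1B (0.9769) for ERAP2. For the proteasome genes they were EPSTI1 (0.9907) and SLC6A6 (0.9894) for PSMB9, PEDS1 (0.919) and IRF7 (0.9186) for PSMB8, ILRUN (0.9408) and CD109 (0.9372) for PSMB10, TADA1 (0.9703) and B2M (0.9662) for PSME1, and USF1 (0.9361) and PFDN6 (0.8801) for PSME2. TEP1 (0.9018) and ROBO1 (0.8984) were closest to TAP2, and 1 gene exceeded an r of 0.9 with it. That count was also 1 for PSME2, 5 for PSMB8 and 9 for PSMB10, against 335 for TAP1, 426 for PSMB9 and 541 for ERAP1.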

How the data were processed

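Per the labels' protocols, polyadenylated RNA from 500 ng of total RNA was made into strand-specific libraries. Per the submitters' processing notes, bcl2fastq 2.20.0, STAR 2.7.10b, featureCounts 2.0.1 and DESeq2 1.38.3 were used with hg38; strand setting and annotation release: not given in the sources used here. The authors deposited gene-level read counts, and a normalised table whose signal values equal the deposited count divided by a size factor within 0.068. No 2 libraries were duplicates, and 0 sample columns were left unmatched.

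Counts of 12 libraries were filtered with filterByExpr, scaled by TMM and fitted in 1 robust quasi-likelihood model with 8 residual degrees of freedom (edgeR 4.0.16 with limma 3.58.1 under R 4.3.3), with Benjamini-Hochberg adjustment over 17114 genes. The normalised values served as a check: log2 ratios of their means differed from the fitted values of the 10 genes by at most 0.0122. Same-numbered libraries of the VC-resistant and DT-resistant lines deviated together (r = 0.337, 0.151 and 0.195, all over 0.1), and no further pair of groups reached this in every number; the pairing rests on the data, not on a label. Alternatives were RLE scaling, DESeq2 1.42.0, no filter, only the 2 groups compared, a replicate block and leaving out each library.

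The genes, the lists and the tests were chosen with earlier results of these data known. Named were all 10 genes, all members of lists of up to 3, IRF1, NLRC5, B2M and LNPEP, and the 2 genes most like each. From longer lists only some of the members that the rule chose by adjusted p are named. Other genes were chosen after their values were seen. One further gene of the rule and 1 motif searched are not reported here. Promoter windows are RefSeq's (GRCh38.p14), and plots were made in Python 3.11.15 with matplotlib 3.10.9.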

Additional observations from a re-analysis of the deposited data

How the results depend on the processing

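Over the 60 log2 fold changes (10 genes in 6 comparisons), DESeq2 and RLE scaling each left all 60 in the same direction and on the same side of the threshold, no filter left 59, only the 2 groups compared left 58 and the replicate block left 57. Without the filter PSME2 was called higher in DT-resistant than in sensitive cells (adjusted p = 0.0416). With only the 2 groups, TAP1 was called lower in EB-resistant than in VC-resistant cells (adjusted p = 0.0361) and the call of PSMB8 in VC-resistant against DT-resistant cells was lost (adjusted p = 0.067). With the replicate block, 1 gene was higher in EB-resistant than in VC-resistant cells, PSMB8 (adjusted p = 0.0469), where the fit without the block had 0; TAP1 was also called lower there (log2FC -0.22, adjusted p = 0.0476) and PSME2 higher in DT-resistant than in sensitive cells (adjusted p = 0.0348). The block changed no other call of these genes.

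Leaving out 1 library at a time, 694 of 720 values kept direction and side, 10 gained a call, 6 lost one and 10 changed sign, none of the last with a call. Those belonged to PSMB10 in EB-resistant against sensitive cells (log2FC from -0.089 to 0.062 over the leave-outs), PSME1 there (-0.052 to 0.015), PSME2 in VC-resistant against sensitive (-0.018 to 0.14) and in EB-resistant against DT-resistant cells (-0.097 to 0.029), and, in EB-resistant against VC-resistant cells, TAP2 (-0.068 to 0.070) and TAPBP (-0.090 to 0.039). Counts of these genes lower than in sensitive cells ranged from 0 to 1 in EB-resistant and from 0 to 1 in VC-resistant cells, and those higher in EB-resistant than in VC-resistant cells from 0 to 1. Over all genes, 2702 were called between VC-resistant and DT-resistant cells, from 1722 (without VC-resistant replicate 6) to 2879. The log2 ratio of PSMB10 to PSMB7 differed between EB-resistant and sensitive cells by 0.0072, from -0.046 to 0.11, and that of PSMB8 to PSMB5 between EB-resistant and VC-resistant cells by -0.032, from -0.16 to 0.084. The cause of these changes was not tested.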
